A study of Mus musculus with 20 samples.

Results

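The 8 genes described here encode the paired collagen chains of the basement membrane (Col4a1 and Col4a2), a pair of basement membrane zone collagens that carry heparan or chondroitin sulphate chains (Col15a1 and Col18a1), a laminin chain (Lamc1) and the partner proteins nidogen-1 (Nid1), perlecan (Hspg2) and fibulin-1 (Fbln1). All probe sets whose only gene symbol on the platform was one of these were taken, 8 of 6137 named genes, which gave 11 probe sets of the 13069 measured, and 10 of the 11 lay high enough to be tested. They were followed through the conversion of 3T3-L1 cells, a mouse fibroblast line, into fat cells after induction with MDI, commonly isobutylmethylxanthine and dexamethasone given together with insulin. Late samples were taken on days 4, 7 and 28 after induction, middle samples on days 2 and 3, early samples at 6, 12 and 24 hours, and the samples before induction were preconfluent and confluent cells. All samples came from the same cell line in culture, and the labels name no genetic change. RNA of each time point was hybridised once to each of 2 Affymetrix array types, called array A and array B, so no time point had a replicate and the labels do not say whether time points were separate cultures. Stage comparisons therefore used the spread of neighbouring time points within a stage as their error, which also holds any change in time inside the stage.

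A basement membrane is a thin sheet of matrix that lies against cells, and each mature fat cell is wrapped in one. Its scaffold is a network of type IV collagen joined to a network of laminin, with nidogen and perlecan linking both. Type IV collagen is built from trimers, and the most widespread trimer takes its chains from Col4a1 and Col4a2, which lie head to head in the mouse genome. Collagens XV and XVIII sit at the border between basement membrane and surrounding matrix, and fibulin-1 binds laminin, nidogen and fibronectin.

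Promoter windows of 4 genes are shown, Col4a1 and Col4a2 because they share a stretch of DNA at their starts, and Col15a1 and Fbln1 because they were the genes called between late and before samples. The windows came from RefSeq on the mouse build GRCm38.p6 and run from 250 bases before the annotated start to 50 bases after it. A window was found for 7 of the 8 genes, 9 windows in all, and none was matched for Lamc1. Col4a1 lies at chr8:11312777-11313076 on the minus strand and Col4a2 at chr8:11312555-11312854 on the plus strand, and capitals in this pair mark the 78 bases that both windows hold, read on opposite strands. Capitals in the Fbln1 window (chr15:85205758-85206057, plus strand) mark motif matches, and the Col15a1 window (chr4:47207762-47208061, plus strand) held none of the motifs searched.
Col4a1: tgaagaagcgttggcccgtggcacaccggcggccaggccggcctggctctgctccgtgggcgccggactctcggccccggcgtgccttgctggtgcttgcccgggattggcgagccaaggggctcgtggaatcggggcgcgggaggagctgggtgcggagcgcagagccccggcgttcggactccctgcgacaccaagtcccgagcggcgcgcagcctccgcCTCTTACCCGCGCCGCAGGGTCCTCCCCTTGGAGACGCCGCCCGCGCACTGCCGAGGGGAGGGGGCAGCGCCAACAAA
Col4a2: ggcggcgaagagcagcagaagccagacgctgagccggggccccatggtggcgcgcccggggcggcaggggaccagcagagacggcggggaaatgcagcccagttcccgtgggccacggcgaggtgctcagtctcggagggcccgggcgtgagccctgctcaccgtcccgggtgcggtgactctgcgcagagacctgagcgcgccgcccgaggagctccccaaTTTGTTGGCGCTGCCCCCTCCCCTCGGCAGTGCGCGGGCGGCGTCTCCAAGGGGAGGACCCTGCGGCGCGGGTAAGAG
Col15a1: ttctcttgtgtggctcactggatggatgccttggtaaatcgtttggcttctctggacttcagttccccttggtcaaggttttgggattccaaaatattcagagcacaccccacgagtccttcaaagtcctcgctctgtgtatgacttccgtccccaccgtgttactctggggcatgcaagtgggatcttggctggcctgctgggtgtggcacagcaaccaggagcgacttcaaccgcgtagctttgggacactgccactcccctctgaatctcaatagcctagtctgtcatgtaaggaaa
Fbln1: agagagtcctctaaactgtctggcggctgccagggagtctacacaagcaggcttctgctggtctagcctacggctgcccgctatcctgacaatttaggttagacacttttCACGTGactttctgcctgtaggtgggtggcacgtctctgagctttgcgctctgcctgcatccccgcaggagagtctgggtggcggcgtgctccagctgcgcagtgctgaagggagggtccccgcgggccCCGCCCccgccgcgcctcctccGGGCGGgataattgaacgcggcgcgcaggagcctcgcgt
The shared stretch was 73.1% G or C, and the whole windows were 74% in Col4a1 and 73.7% in Col4a2, against 52.3% in Col15a1 and 64% in this Fbln1 window. Motifs were searched on both strands, and overlapping windows of a gene share their matches. The GC box was searched as GGGCGG. The CCAAT box was searched by the letters of its name. The TATA box was searched as TATAAA and the E box as CACGTG. For the response element of nuclear receptors the core letters were AGGTCA. Col4a1 held 1 GC box and 1 CCAAT box, and Col4a2 held 3 GC boxes and 1 CCAAT box. The Col4a1 GC box lies in the shared stretch and is also counted among the 3 of Col4a2. The Fbln1 window held 2 GC boxes and 1 E box. Among 32851 promoter windows of this length, 35.7% held the GC box, 37.4% the CCAAT box, 13.6% the TATA box, 7.15% the E box and 16.3% the nuclear receptor core. No window of the members held the TATA box or the nuclear receptor core, which says only that these letters were not in these bases.

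Values are linear intensities, the brightness of a probe set, deposited at a common overall level across arrays, and values below 0 occur. Intensities of different probe sets cannot be set against each other, so each gene is compared with itself only. For tests on the log2 scale, values under a floor of 137 on array A or 156 on array B were set to that floor. A stage wholly at the floor adds no spread to the error of the test, so SE and p can come out too small. A difference was called when limma's adjusted p was under 0.05 over all 7582 probe sets tested, and a fold written as at least N-fold rests on a stage with samples at the floor.

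Along the series as a whole, 6 of the 10 tested probe sets changed (Col4a1, Col4a2, Col15a1, Lamc1 and both probe sets of Fbln1), against 16.8% of all probe sets tested. Between late and before samples 2 of 10 were called, Col15a1 higher and 1 Fbln1 probe set lower, against 10.9% of all probe sets. That background splits into 5.82% higher and 5.1% lower. Between late and early samples 3 of 10 were called, Col15a1 higher and both Fbln1 probe sets lower, against 13.7% of all probe sets (7.16% higher and 6.54% lower). None of the 10 was called by limma between middle and before samples, where 2.76% of all probe sets were, and 4 had an unadjusted p under 0.05. None was called by limma between early and before samples, where 0.356% of all probe sets were, and 2 had an unadjusted p under 0.05. The median log2 difference of the members was -0.28 for late minus before, 0.29 for middle minus before, 0.38 for early minus before and -0.62 for late minus early. Over all probe sets tested the same medians were -0.05, -0.04, 0.00 and -0.05. The comparisons with the samples before induction share those 2 samples. Members and the gene lists below were chosen with earlier results of these data known, so shares set beside those of all probe sets are descriptions only.

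**Figure D1:**
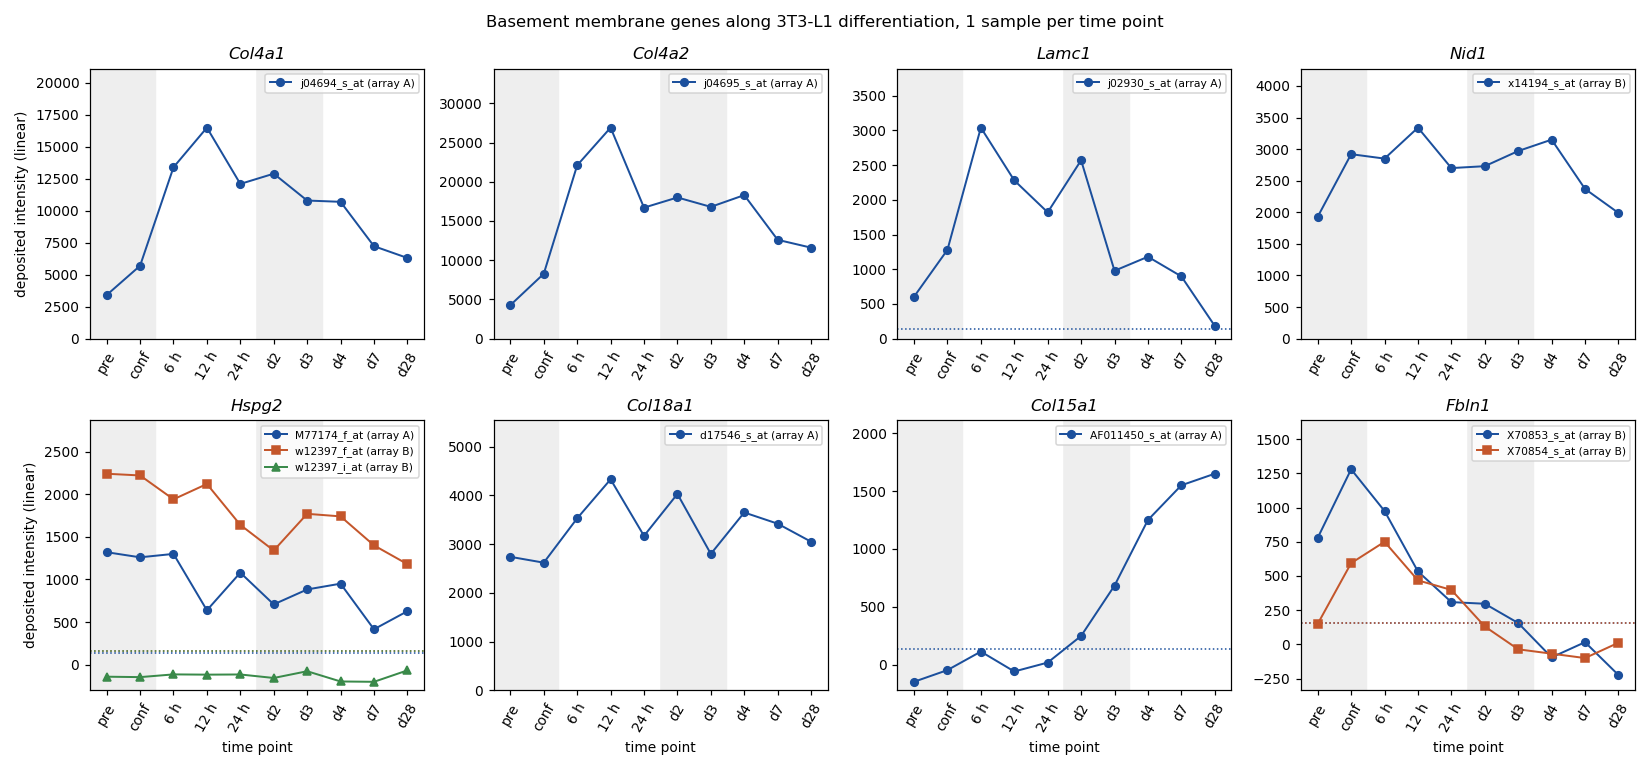
Intensity of the 11 probe sets of the 8 genes (y axis, linear, array units) at the 10 time points in order (x axis), 1 array per point; grey bands mark the before and middle stages and the dotted line the floor. Col4a1 and Col4a2 peak at 12 hours, at 16500 and 26900, Col15a1 climbs to 1650 on day 28, and both Fbln1 probe sets end at or under the floor.

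The type IV collagen chains moved together and peaked in the first day. Col4a1 read 3410 in preconfluent and 5700 in confluent cells, 13400, 16500 and 12100 at 6, 12 and 24 hours, 12900 and 10800 on days 2 and 3, and 10700, 7230 and 6310 on days 4, 7 and 28. Every sample after induction lay above both samples before it, and the 3 early samples also lay above the 3 late ones. Col4a1 changed along the series (limma F test of a smooth curve, adjusted p = 0.00857). Early samples averaged 14000 ± 2261, against 4555 ± 1619 before induction (SD, n = 3 and 2), a log2 difference of 1.65 ± 0.34 (SE) that limma did not call (3.15-fold, adjusted p = 0.093). Late samples averaged 8080 ± 2315, against the same 4555 ± 1619 before induction (SD, n = 3 and 2), with a log2 difference of 0.84 ± 0.34 (SE) and an adjusted p of 0.155 from limma.

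Col4a2, the partner chain of the same trimer, read 4270 in preconfluent and 8270 in confluent cells, 22100, 26900 and 16700 at 6, 12 and 24 hours, 18000 and 16800 on days 2 and 3, and 18300, 12600 and 11600 on days 4, 7 and 28. All 8 samples after induction again lay above both samples before it, but the late and early samples overlapped. Its series-wide change was called as well (limma, adjusted p = 0.0132). The 12 hour value was 6.3 times the preconfluent one for Col4a2 and 4.84 times for Col4a1. Late minus before came to 1.22 ± 0.37 (SE) on the log2 scale, 2.34-fold, with an adjusted p of 0.057 from limma. Early minus before came to 1.85 ± 0.37 (SE), 3.62-fold, with an adjusted p of 0.0753, and middle minus before to 1.55 ± 0.40 (SE), 2.93-fold, with an adjusted p of 0.0742. Without the confluent sample, late minus before was 1.70 and early minus before 2.33, each against 1 preconfluent sample. Over the alternatives, late minus before ran from 0.75 to 1.70 and was called in 2 of 16. Early minus before ran from 1.38 to 2.33 and middle minus before from 1.07 to 2.03, each called in 1 of 15.

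Both type IV calls rested on the preconfluent sample. Without it the adjusted p of the series-wide change was 0.0968 for Col4a1 and 0.273 for Col4a2. Confluent over preconfluent was 1.67 for Col4a1 and 1.94 for Col4a2, while 5th and 95th percentiles of that step over all tested probe sets above the floor in both samples were 0.447 and 2.02. The next step, 6 hours over confluent, was 2.35 for Col4a1 and 2.67 for Col4a2, above the 95th percentile of 2.08.

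Over the 10 time points the log2 values of the pair correlated at r = 0.98, and of 3563 named candidates on array A each chain was the other's closest match (r = 0.976). The next closest were Glg1, which encodes a Golgi glycoprotein, for Col4a1 (r = 0.911) and Chchd7, which encodes a mitochondrial protein, for Col4a2 (r = 0.918). These correlations describe 10 arrays that the probe sets share, and 3 of the Glg1 values were at the floor. The ratio of the 3′ to the 5′ control probe set of Gapdh on array A, a sign of RNA quality, was 0.986 in preconfluent and 1.33 in confluent cells, 1.61, 1.43 and 1.45 in the early samples, 1.27 and 1.6 in the middle ones, and 1.14, 1.13 and 0.992 in the late ones. The same ratio for actin was 1.05 in preconfluent cells and between 1.29 and 1.72 in the other samples. On array A both ratios were lowest in preconfluent cells, where the type IV chains were lowest too. On array B the Gapdh ratio was highest in preconfluent cells, at 0.815, and between 0.722 and 0.788 in the other samples. The actin ratio on array B was 0.824 in preconfluent cells and between 0.801 and 1.11 in the others. The part of RNA quality in the result was not tested.

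**Figure D2:**
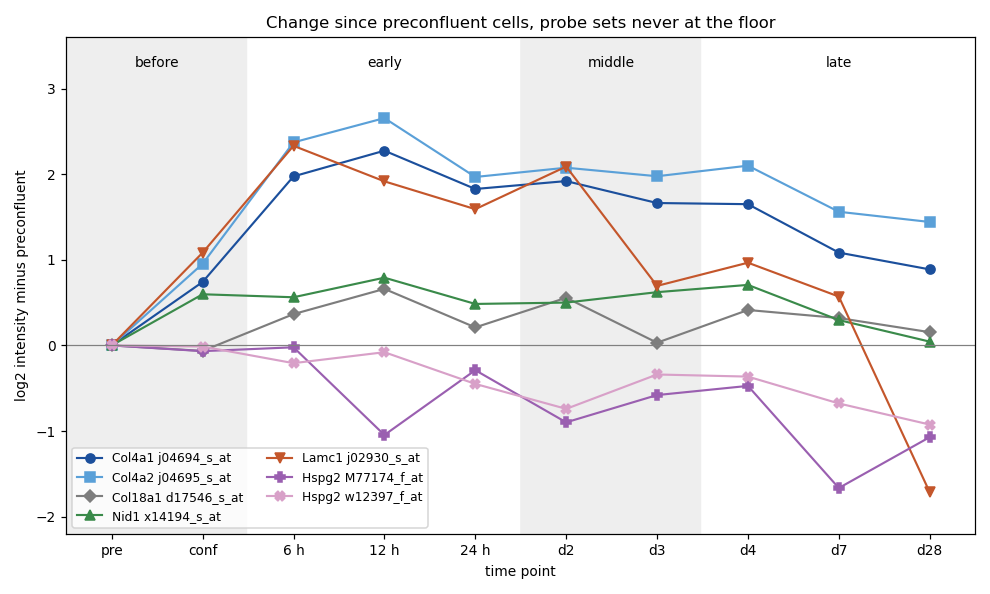
Log2 intensity minus the preconfluent value (y axis) against time (x axis) for the 7 probe sets never at the floor, with 1 line per probe set and the stages named above. The Col4a1 and Col4a2 lines run side by side, Lamc1 drops on day 28, and both Hspg2 lines lie under 0 from confluence on.

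Col15a1, which encodes a collagen with chondroitin and heparan sulphate chains, was the member called higher in late samples. It read -148 in preconfluent and -47 in confluent cells, 113, -59 and 18 at 6, 12 and 24 hours, 248 and 683 on days 2 and 3, and 1250, 1550 and 1650 on days 4, 7 and 28. All 5 samples up to 24 hours were at the floor, and every sample from day 2 on was above all of them. Late samples averaged 1483 ± 208, against -97.5 ± 71.4 before induction (SD, n = 3 and 2), at least 10.8-fold higher (limma, log2 difference 3.43 ± 0.39 (SE), adjusted p = 0.000676). Against the early samples, which averaged 24 ± 86.2 (SD, n = 3), late samples were at least 10.8-fold higher (limma, adjusted p = 0.000343). Early and before samples were all set to the same floor, so this fold was bound to equal the first and is no second result. Those 2 stages also added no spread to the error, so the SE and p-values for Col15a1 can be too small. The probe set lay high enough to be tested only through its samples from day 2 on. The series-wide change was called too (adjusted p = 0.000317).

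The climb of Col15a1 slowed with time. Day 3 was 2.75 times day 2, day 4 was 1.83 times day 3, day 7 was 1.24 times day 4 and day 28 was 1.06 times day 7. Only the first of these steps and the day 4 one lay above the 95th percentiles over all tested probe sets, 1.84 for day 3 over day 2 and 1.81 for day 4 over day 3. Middle samples averaged 466 ± 308, against the same -97.5 ± 71.4 before induction (SD, n = 2 each), at least 3-fold higher, and limma did not call that difference (log2 difference 1.59, adjusted p = 0.0811). Of 15 alternatives 2 called it. One had the floor at 0.5 times its value (log2 difference 2.59, adjusted p = 0.0302). The other was without day 2, which left 1 middle sample (log2 difference 2.32). Over all 15 the log2 difference ran from 0.66 to 2.59. Both samples before induction were at the floor, so its size depends on where the floor is set. The late against before call was kept in all 16 alternatives tried, with adjusted p between 0.000113 and 0.0131.

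Samples that gained Col15a1 also gained fat cell markers. The summed intensity of 7 probe sets for 6 adipocyte genes (Fabp4, Adipoq, Lipe, Pparg, Cebpa and Cd36) was 67710 to 87180 in late samples, 22370 to 56920 in middle samples and 731 to 2528 in early samples, against 389 to 895 before induction. Per array, a larger share of converted cells and more RNA per cell cannot be told apart. Endothelial cells are another known source of basement membrane genes. Of 9 endothelial probe sets, 5 never lay above the limit used for testing (2 for Cdh5, and 1 each for Flt1, Pecam1 and Tie1), and the summed endothelial intensity was 1329 to 1685 in late samples, against 1473 to 1908 before induction. Icam2 was the single endothelial marker called, 1.78-fold higher in late than before samples (limma, adjusted p = 0.0333).

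Col18a1, the related collagen whose C-terminal fragment is endostatin, kept a much narrower range. It read 2740 in preconfluent and 2620 in confluent cells, 3530, 4330 and 3170 at 6, 12 and 24 hours, 4030 and 2800 on days 2 and 3, and 3650, 3420 and 3050 on days 4, 7 and 28. Its highest sample was 1.65 times its lowest, and late samples lay above both samples before induction by 1.26-fold, which limma did not call (log2 difference 0.33 ± 0.29 (SE), adjusted p = 0.537). Its series-wide change was not called either (adjusted p = 0.647). Over the 10 time points it correlated with Col4a1 at r = 0.74 and with Col15a1 at r = -0.01. Its closest matches on array A were H2-Oa (r = 0.979), with 3 values at the floor, and Tmem50b (r = 0.935).

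Fbln1, which encodes a calcium-binding glycoprotein of the matrix, ran the other way. Its first probe set on array B read 779 in preconfluent and 1280 in confluent cells, 975, 533 and 309 at 6, 12 and 24 hours, 297 and 156 on days 2 and 3, and -95, 16 and -224 on days 4, 7 and 28. From 6 hours on, each sample up to day 4 was lower than the one before it, and the late samples all lay at the floor. The probe set lay high enough to be tested only through its samples up to day 2. Late samples averaged -101 ± 120, against 1030 ± 354 before induction (SD, n = 3 and 2), at least 6.4-fold lower (limma, log2 difference -2.68 ± 0.47 (SE), adjusted p = 0.00928). Late samples were also at least 3.48-fold lower than early samples, which averaged 606 ± 339 (SD, n = 3; limma, adjusted p = 0.0245).

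The second Fbln1 probe set read 150 in preconfluent and 594 in confluent cells, 750, 468 and 398 at 6, 12 and 24 hours, 131 and -36 on days 2 and 3, and -68, -100 and 12 on days 4, 7 and 28. It was at the floor in preconfluent cells and from day 2 on, so it was high only from confluence to 24 hours. The probe set lay high enough to be tested only through those samples, which include all early ones. Late samples averaged -52 ± 57.7, against 539 ± 186 in early samples (SD, n = 3 each), at least 3.33-fold lower (limma, adjusted p = 0.0349). Late minus before was not called (adjusted p = 0.271), and no fold is given there because both stages had samples at the floor. Without the preconfluent sample that difference was called (log2 difference -1.93, adjusted p = 0.0278, against -0.96 with it). The probe sets disagreed on preconfluent cells, and over the 10 time points they correlated at r = 0.75. The late against early calls of both were fragile: the first lost it in 7 of 15 alternatives and the second in 10 of 15. The late against before call of the first was lost in 3 of 16 alternatives, among them leaving out the confluent sample (adjusted p = 0.0722). Along the series the adjusted p was 0.00134 for the first and 0.0207 for the second, and the second lost that call in 6 of 16 alternatives.

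Of the 11 probe sets of 6 fibroblast marker genes, 4 were called lower in late than in before samples, while 5.1% of all probe sets were. They were Thy1, Dlk1, S100a4 and, in 1 of its 3 probe sets, Col1a2. Col1a1 was called along the series in 2 of its 3 probe sets, and Col3a1 was not called. The summed intensity of the 11 fibroblast probe sets was 38980 to 72718 in late samples, against 93743 to 115790 before induction. The sum of 5 smooth muscle and pericyte probe sets was 928 to 7709 in late samples, against 12793 to 14933 before induction, with Pdgfrb called 4.43-fold lower (limma, adjusted p = 0.046), Tagln called along the series and Myh11 never above the limit. The sum of 5 macrophage probe sets was 1539 to 3237 in late samples, against 3469 to 3607 before induction, with Cd14 called 1.92-fold lower (limma, adjusted p = 0.039) and both Adgre1 and Csf1r never above the limit. From day 7 to day 28 the fibroblast markers Thy1 (674 to 4240), Dlk1 (685 to 3140) and S100a4 (1150 to 5500) rose again. Both Fbln1 probe sets stayed at the floor on day 28. The part of these marker changes in the Fbln1 result was not tested.

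Lamc1, the gamma chain found in most laminin trimers, read 604 in preconfluent and 1280 in confluent cells, 3040, 2280 and 1820 at 6, 12 and 24 hours, 2570 and 978 on days 2 and 3, and 1180, 897 and 184 on days 4, 7 and 28. It was high from 6 hours to day 2 and lowest on day 28, and its highest value was 16.5 times its lowest. The series-wide change was called (limma, adjusted p = 0.0119). Late samples averaged 754 ± 513, against 2380 ± 616 in early samples (SD, n = 3 each), 4.02-fold lower without overlap but not called (limma, log2 difference -2.01 ± 0.64 (SE), adjusted p = 0.0637). Of 15 alternatives only 1 called the difference, the fit without day 4 (-2.52, adjusted p = 0.0436). Over all 15 the log2 difference ran from -2.52 to -1.18, with adjusted p up to 0.298. Late minus before was -0.60 ± 0.72 (SE) on the log2 scale (adjusted p = 0.658), and the large SE came with a residual SD of 0.79 within stages.

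Among member probe sets above the floor on days 7 and 28, Lamc1 fell most between them. This rests on 1 array value, 184, close to the limit of 182 for testing on array A, as does its range given above. The late samples in the Lamc1 comparisons above include that value too. The first Fbln1 probe set and the array B probe set of Hspg2 were lowest on day 28 too. Its day 28 value was 0.205 times its day 7 value, below the 5th percentile of 0.495 for that step over all tested probe sets, while the type IV chains stood at 0.873 (Col4a1) and 0.921 (Col4a2). Lamc1 correlated with Col4a1 at r = 0.69, with Col4a2 at r = 0.56 and with Col15a1 at r = -0.61. Its closest matches were Snd1 (r = 0.961), which encodes an RNA-binding nuclease, and Stat3 (r = 0.930), a signalling transcription factor. Both were also lowest on day 28, at 270 and 2140, but they were picked for likeness to Lamc1 on these same arrays.

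Nid1, which encodes the glycoprotein that bridges laminin and type IV collagen, read 1930 in preconfluent and 2920 in confluent cells, 2850, 3340 and 2700 at 6, 12 and 24 hours, 2730 and 2970 on days 2 and 3, and 3150, 2370 and 1990 on days 4, 7 and 28. Every stage overlapped with the samples before induction, and the highest sample was 1.73 times the lowest. Late minus before was 0.05 ± 0.25 (SE) on the log2 scale (limma, adjusted p = 0.938), and the series-wide change was not called (adjusted p = 0.247). Its closest matches among 1258 named candidates on array B were Tpt1 (r = 0.899) and the ribosomal protein gene Rpl27a (r = 0.897).

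Hspg2 encodes perlecan, the large heparan sulphate proteoglycan of the basement membrane, and was read by 3 probe sets. On array A it read 1320 in preconfluent and 1260 in confluent cells, 1300, 639 and 1080 at 6, 12 and 24 hours, 708 and 883 on days 2 and 3, and 951, 416 and 628 on days 4, 7 and 28. On array B it read 2240 and 2220 in preconfluent and confluent cells, 1940, 2120 and 1640 at 6, 12 and 24 hours, 1340 and 1770 on days 2 and 3, and 1740, 1400 and 1180 on days 4, 7 and 28. On both arrays the late samples lay below both samples before induction, by 2.05-fold on array A and 1.57-fold on array B. Neither difference was called (limma, adjusted p = 0.136 and 0.1). The closest profile on array A was that of Arhgdib (r = 0.892), followed by Tbca (r = 0.882), and on array B that of Ccng1 (r = 0.889), followed by Sfr1 (r = 0.882). The maker marks these Hspg2 probe sets as gene family probe sets, which may also bind related transcripts. The third probe set lay below 0 in all 10 samples, between -200 and -66, and was not tested.

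**Figure D3:**
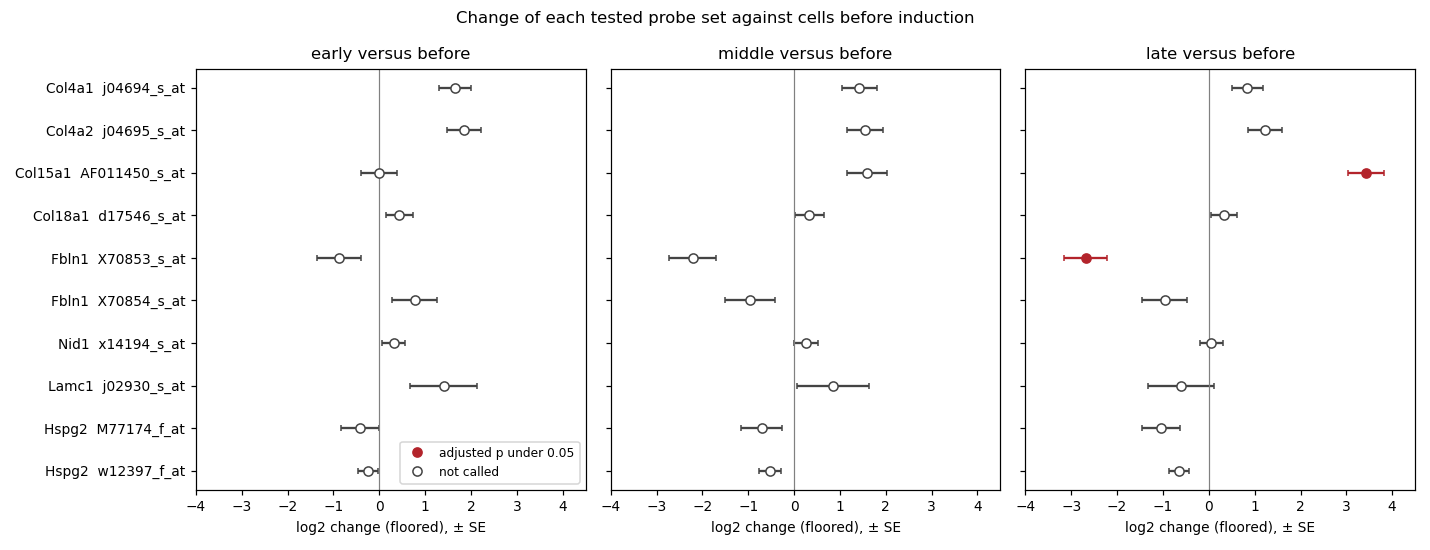
Log2 difference (x axis) of each of the 10 tested probe sets (rows) from the samples before induction, in the early, middle and late stages (panels in time order), with bars of 1 SE; red points have an adjusted p under 0.05. Col15a1 stands at 3.43 and the first Fbln1 probe set at -2.68 in the late panel, the only red points.

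Other basement membrane proteins were followed in a list of 30 genes, of which 19 were on the arrays and 16 were tested. None of their 18 probe sets was called by limma in any of the 4 stage comparisons or along the series. At an unadjusted p under 0.05 there were 5 for late against before, 2 for middle against before, 4 for early against before, 1 for late against early and 4 along the series. The median log2 difference for late minus before was 0.08, beside -0.05 over all probe sets. The laminin alpha chain gene Lama4 read 1020, 541 and 644 on days 4, 7 and 28, against 70 and 666 in preconfluent and confluent cells (limma, adjusted p = 0.307). The type IV chain gene Col4a4 read 508, 306 and 530 on days 4, 7 and 28, against 1140 and 619 before induction, 1.93-fold lower and not called (adjusted p = 0.102). Col4a5, another type IV chain gene, read 100, 85 and 147 in late samples, against 200 and 341 before induction, at least 1.67-fold lower and not called (adjusted p = 0.0757). Col4a3 lay at the floor in all 10 samples, as did Lama1. Lama2, a laminin alpha chain gene, stayed between 297 and 646, and Lamb1, a beta chain gene, between 93 and 270. One probe set each of the alpha chain genes Lama3 and Lama5 lay at the floor in all 10 samples. The other Lama3 probe set read 619 at 12 hours and 178 to 245 elsewhere, the other Lama5 probe set was at the floor in 3 samples, and the beta chain gene Lamb3 in 4. The fibulin gene Fbln2 read 11800, 8020 and 10500 in late samples, against 7050 and 8990 before induction, 1.25-fold higher and not called (adjusted p = 0.414). Nid2, the second nidogen, was at the floor in 6 of 10 samples.

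Of 18 receptor genes for basement membrane proteins, 11 were tested with 14 probe sets, and 3 were called between late and before samples, 1 higher and 2 lower, beside 5.82% higher and 5.1% lower among all probe sets. Itga6, which encodes the alpha chain of laminin-binding integrins, read 3620, 1700 and 1730 on days 4, 7 and 28, against 877 and 288 before induction, 4.38-fold higher (limma, adjusted p = 0.0345). That call was lost when any of 8 of the 10 time points was left out, with adjusted p up to 0.184. Itgb1, the shared beta chain of many matrix receptors, read 3060, 2890 and 3070, against 5720 and 6480 before induction, 2.03-fold lower (adjusted p = 0.00928), and kept its call whichever time point was left out. Sdc2, a heparan sulphate proteoglycan of the cell surface, was at least 2.56-fold lower (adjusted p = 0.0278), a call lost without the preconfluent, confluent or day 4 sample. Itgav (adjusted p = 0.00562) and Sdc4 (adjusted p = 0.011) were called along the series only, among the comparisons run. In all 7 receptor probe sets of 14 were called along the series, beside 16.8% of all probe sets. Between late and early samples, where 7.16% of all probe sets were called higher and 6.54% lower, Itga6 was called higher and Itgb1, Sdc1 and the collagen receptor Ddr2 lower, and single time points ended the call of Itga6 in 6 of 10 cases, of Ddr2 in 2 and of Itgb1 in 1. One of the Sdc1 probe sets read 140, 1 and 35 on days 4, 7 and 28, against 1620, 1780 and 1000 at 6, 12 and 24 hours, at least 9.12-fold lower (adjusted p = 0.00153).

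Collagen chain modification and folding was represented by 6 tested genes of 14, with 7 probe sets. None was called by limma between late and before samples, where 1 had an unadjusted p under 0.05 and the median log2 difference was 0.21. Ppib, a prolyl isomerase of the endoplasmic reticulum, was called 2.24-fold lower in late than in early samples (adjusted p = 0.031). P4hb, a subunit of prolyl 4-hydroxylase, changed along the series (adjusted p = 0.0352), and both calls were lost without some single time points, with adjusted p up to 0.102 for Ppib and 0.298 for P4hb.

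Matrix proteases and their inhibitors were the last list. Of 21 genes, 13 were tested with 16 probe sets, and between late and before samples 5 genes (6 probe sets) were lower and 0 higher, beside 5.1% of all probe sets lower and 5.82% higher, with a median log2 difference of -1.22 beside -0.05 over all probe sets. Mmp14, a membrane-bound collagenase, read 671, 1020 and 1190 on days 4, 7 and 28, against 2770 and 4770 before induction, 3.89-fold lower (limma, adjusted p = 0.00741). Timp2, an inhibitor of matrix metalloproteinases, read 262, -287 and -159, against 1620 and 2600, at least 11-fold lower (adjusted p = 0.0174). The others were the matrix protease gene Adamts1 (6.06-fold lower), both probe sets of the procollagen-processing protease gene Bmp1 (at least 2.93-fold and at least 3.51-fold lower) and the plasminogen activator gene Plat (at least 5.04-fold lower). Each of these calls was lost without the confluent sample, a fit that leaves 1 sample before induction. The calls of Timp2 and both Bmp1 probe sets were also lost without the preconfluent sample. Those of Timp2 and the Bmp1 probe set at least 2.93-fold lower were lost without day 7 as well. Between late and early samples, where 6.54% of all probe sets were called lower, 6 of the 16 were, and Adamts1, Bmp1, Mmp14, Timp2 and the gelatinase gene Mmp2 were the genes, and single time points ended the call of Mmp2 in 7 of 10 cases, of Mmp14 in 4 and of Timp2 in 1. Of the inhibitors, Timp3 changed along the series (adjusted p = 0.00781), as did the cathepsin genes Ctsl (adjusted p = 0.0459) and, in 1 of its probe sets, Ctsb (adjusted p = 0.0433). Leaving out single time points ended the Ctsl call in 8 of 10 cases and the Ctsb call in 9.

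**Figure D4:**
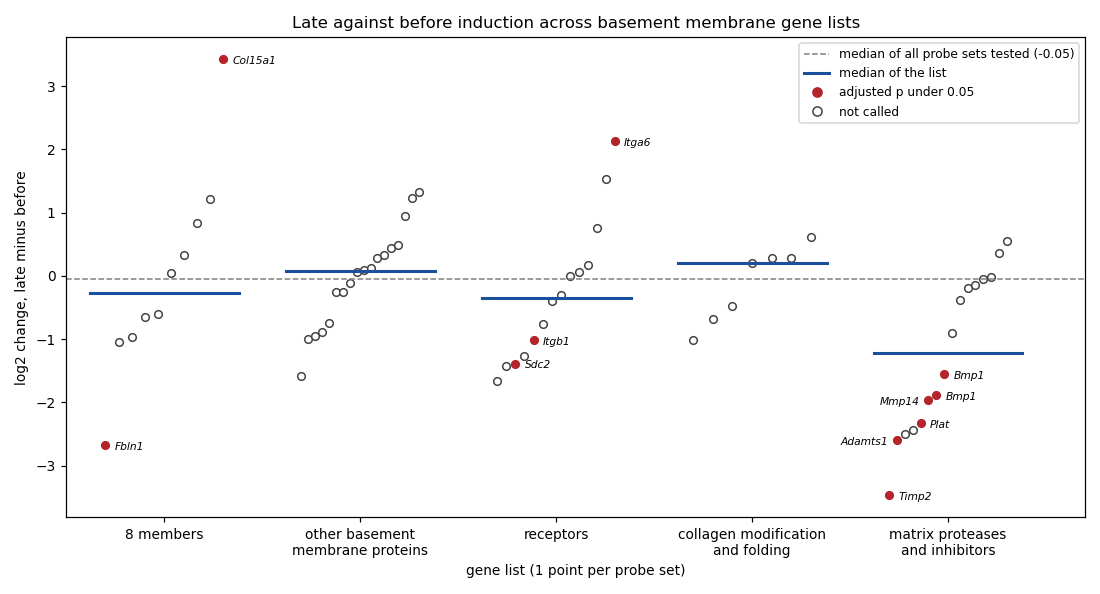
Log2 difference late minus before (y axis) for every tested probe set of the 8 genes and of 4 other lists (x axis), with red points called by limma, blue bars the list medians and a dashed line the median of all probe sets tested (-0.05). The protease and inhibitor list has its median at -1.22, and the other basement membrane proteins have theirs at 0.08.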

How the data were processed

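Total RNA (10 µg, Trizol) of 10 time points was made into biotin-labelled cRNA and hybridised to array types A and B, 20 arrays in all, per the labels' protocols. The deposited values are linear intensities per probe set, and the software behind them was not given in the sources used here. The mean after trimming 2% at each end lay between 500.874 and 501.117 on every array, so the authors' scaling was kept. Between 22.8% and 31.2% of values per array were below 0. Gene names came from the platform annotation (7542 probe sets with 1 symbol, 224 with several, 5303 with none), and 110 control probe sets were left out.

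Floors were the 10th percentile of an array type with its sign turned (137 on A, 156 on B). Testing required at least 2 samples above 182 (A) or 156 (B), which kept 4050 and 3532 probe sets. Each array type was fitted alone with limma 3.58.1 in R 4.3.3 on log2 values, with 4 stage means and 6 residual degrees of freedom, and p-values were adjusted (Benjamini-Hochberg) over both types. The series-wide change was the F test of a natural spline with 3 degrees of freedom. The scripts were tested on simulated data. The number of arrays limits the precision. Members and gene lists were chosen with earlier results of these data known. Named were all member probe sets, listed genes that were called, the type IV, laminin, nidogen and fibulin genes, and the 2 most similar profiles of each member probe set with at most 3 values at the floor.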

Additional observations from a re-analysis of the deposited data

How the results depend on the processing

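Without the filter on low values, limma called 412 probe sets for late against before, 53 for middle against before, 15 for early against before, 515 for late against early and 631 along the series, in place of 828, 209, 27, 1039 and 1273. Doubling the floor gave 65 for early against before, and confluent cells alone as the baseline gave 319 for late against before. With each time point left out in turn, the counts ran from 319 to 766 for late against before, 35 to 193 for middle against before, 0 to 46 for early against before, 489 to 992 for late against early and 915 to 1254 along the series. The 0 came without the 12 hour samples, where 507 probe sets had an unadjusted p under 0.05. Confluent cells alone as the baseline is the same fit as leaving out the preconfluent sample.

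For the members, 770 values under alternatives were computed: 727 stayed on the same side of the threshold, 11 gained a call, 32 lost one, and no called value changed sign. For late against before, these counts and the 16 alternatives hold the fit without the preconfluent sample under both of its names. Col15a1 kept its late against before and series-wide calls in all 16 alternatives. Col4a2 lost its series-wide call also without the filter (adjusted p = 0.0608), and its late against before difference passed under quantile normalization (0.034) and without confluent cells (0.0425). Lamc1 lost its series-wide call with the doubled floor (0.0531) and without the filter (0.105). The cause of these moves was not tested. No paired analysis was possible because no time point has a replicate and the labels give no numbers that pair samples.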
